A study of Mus musculus with 8 samples.

Results

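The genes described here, 10 in number, were 8 lysosomal proteases (Ctsb, Ctsc, Ctsd, Ctsh, Ctsl, Ctss, Ctsz and Lgmn) and 2 cystatins (Cst3 and Cst7), inhibitors of cysteine proteases. They were taken by symbol from the 41388 gene identifiers counted in each library, and all 10 were among the 12002 genes with enough counts to be tested. Cathepsins are made as inactive precursors and work in the acid of endosomes and lysosomes, where they break down engulfed protein and trim the chains that occupy major histocompatibility complex (MHC) class II molecules. Most are cysteine proteases, cathepsin D is an aspartic protease, and legumain, the product of Lgmn, cuts after asparagine and can mature other cathepsins. Cystatin C, from Cst3, is a secreted inhibitor of cysteine cathepsins, and cystatin F, from Cst7, is an inhibitor that immune cells send to the lysosome and whose known targets include cathepsin C.

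The cells were microglia, the macrophages that reside in brain and spinal cord, sorted from adult C57BL/6 mice by CD11b, CD45 and CD11c. The 8 total RNA libraries form 3 groups, namely CD11c+ microglia of mice with neuromyelitis optica (NMO), in which inflammation strikes optic nerve and spinal cord (n = 2), the CD11c- fraction from such mice (n = 3), and microglia of control mice (n = 3). The control titles call the mice unmanipulated and the cells total microglia, whereas another label gives them as CD11c negative. How NMO was produced, whether animals were pooled and whether each library is a separate mouse are not given in the labels, so p-values measure the spread between these libraries, which may be technical. NMO and control libraries carry numbers from separate ranges (7 to 12 against 21 to 23) and no batch label, so preparation and disease cannot be told apart where NMO is compared with control.

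Totals were 4943207 and 5914412 counts in the CD11c+ libraries, 6437516 to 6819662 in NMO CD11c- and 7500815 to 9246061 in control. Itgax, which encodes CD11c, stood at 188 and 181 CPM (counts scaled to library size) in CD11c+ libraries, 35.5 to 41.3 in NMO CD11c- and 30.6 to 32.1 in control. The 10 microglial markers were present in every library, and their summed level was 32731 to 34482 CPM in CD11c+, 34203 to 42389 in NMO CD11c- and 42003 to 46302 in control. Across genes, CD11c+ replicate 1 stood apart: Spearman's correlation between a gene's GC content and its deviation in that library was 0.608, against -0.314 to -0.0334 in the other 7 libraries (-0.08 in CD11c+ replicate 2). The 10 neutrophil markers summed to 15.3 and 19.7 CPM in CD11c+, 2067 to 10682 in NMO CD11c- and 864 to 1774 in control. Results that rest on CD11c+ replicate 1 are given with and without it.

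The largest relative difference among the 10 genes belonged to Cst7. Of the 10, 7 (Cst7, Ctsb, Ctsd, Ctsh, Ctsl, Ctss and Ctsz) were called higher in CD11c+ microglia than in control, as were 6.85% of all tested genes. In NMO CD11c- microglia 2 (Cst7 and Ctsl) were called higher than in control, as were 3.0% of all genes, and 1 (Cst7) was called higher in CD11c+ than in NMO CD11c- microglia, as were 0.100%. None of the 10 was called lower in these tests, where 3.36%, 0.717% and 0.183% of all genes were. Ctsc, Lgmn and Cst3 passed the test in no comparison. Calls are from edgeR's quasi-likelihood test, at 0.05 after Benjamini-Hochberg adjustment across the 12002 genes. In these bulk libraries, fewer cells that express a gene and less RNA of it per cell cannot be told apart. The plot of each gene by library shows the values behind these counts.

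**Figure D1:**
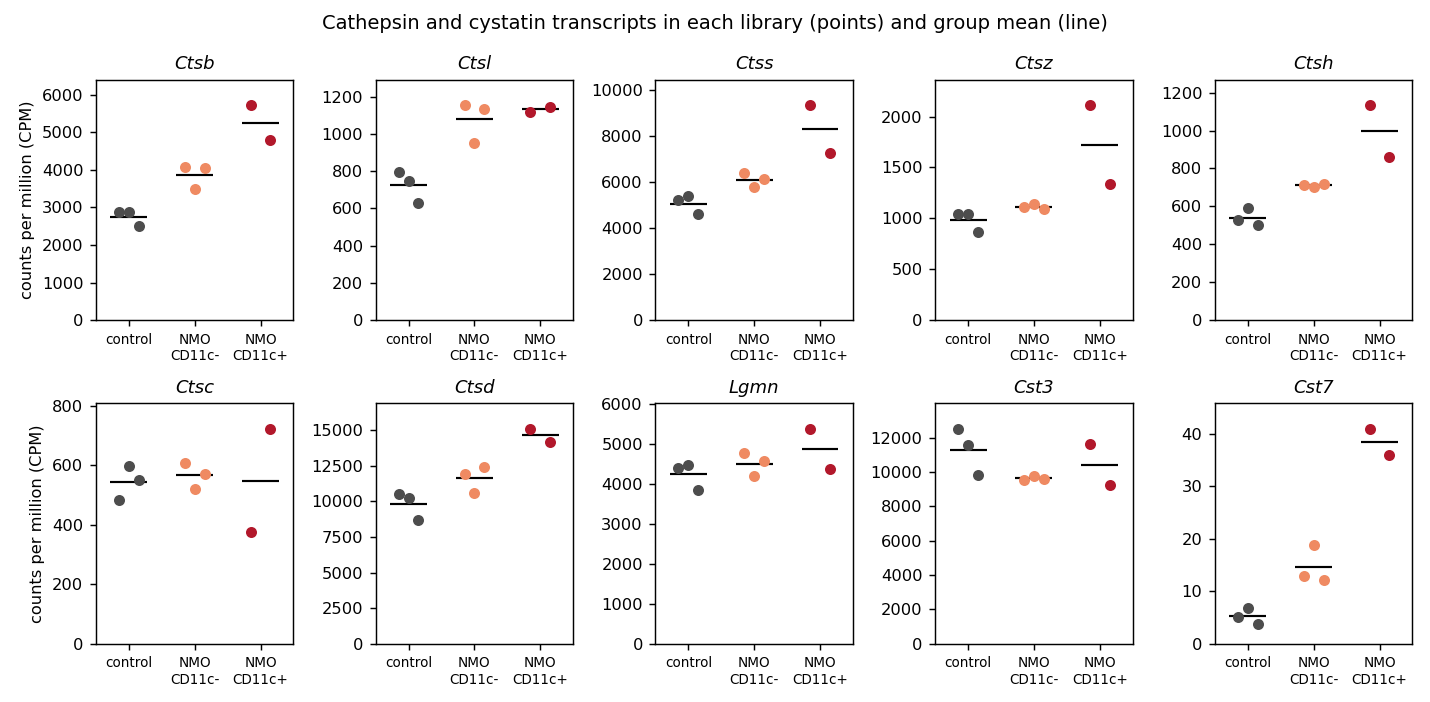
Level of each of the 10 genes in every library, in CPM on a linear axis from 0 that differs between panels, by group; points are libraries and lines are group means. Cst7 lies between 3.79 and 6.75 CPM in control, 12.0 and 18.8 in NMO CD11c- and 35.9 and 40.9 in CD11c+, whereas the ranges of Lgmn and Ctsc overlap between all groups.

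Several of these genes were among the most abundant transcripts of the cells. Divided by transcript length, Cst3 ranked 1 of 11946 genes in all 3 groups, with a mean of 12126 CPM per kilobase (kb) in CD11c+, 11221 in NMO CD11c- and 13127 in control. Ctsd ranked 2 in all 3 groups (6881, 5467 and 4612 CPM per kb in the same order). Ctss ranked 3, 3 and 4, at 6111, 4497 and 3731 CPM per kb, and Lgmn ranked 13, 12 and 13, at 2451, 2267 and 2134. In control the order then ran Ctsz (681 CPM per kb), Ctsb (581), Ctsl (368), Ctsh (334) and Ctsc (169). Of these neighbours in control, the range of Ctsz (600 to 722) overlapped that of Ctsb (529 to 608). The range of Ctsl (320 to 405) likewise overlapped that of Ctsh (309 to 365). Within every control library, however, Ctsz stood above Ctsb and Ctsl above Ctsh. Cst7 stood last throughout, at 38.9, 14.8 and 5.30 CPM per kb, and its rank went from 7834 in control to 4485 in NMO CD11c- and 1725 in CD11c+ microglia. Per kb, 1 transcript was used for each gene. Together the 10 genes took 5.14% and 4.22% of all counts in the CD11c+ libraries, 3.84% to 4.11% in NMO CD11c- and 3.27% to 3.79% in control.

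Cst7 (ENSMUSG00000068129, chromosome 2, 150570415 to 150578944, plus strand, GRCm38) encodes cystatin F. Its level was 40.9 and 35.9 CPM in CD11c+, 12.9, 18.8 and 12.0 in NMO CD11c- and 5.14, 6.75 and 3.79 in control, resting on 29 to 204 counts a library. The 3 groups were fully separated, with CD11c+ highest and control lowest. Between the NMO subsets (38.4 ± 3.47 against 14.6 ± 3.70, SD, n = 2 and 3) the log2 fold change was 1.40 (SE 0.233, adjusted p = 0.0466), 2.63-fold. That call held without CD11c+ replicate 2 (0.00581) or NMO CD11c- replicate 2, but not without CD11c+ replicate 1 (0.117) or, in the NMO CD11c- group, replicate 1 (0.121) or 3 (0.0739). Removing any control library, none of which is in either group compared, also ended it (0.0915, 0.0638 and 0.0595), as did library size only (0.0593), a minimum count of 50 (0.0508) and a fit of only these groups (0.13). Against control (5.23 ± 1.48, n = 3) the log2 fold change was 1.46 in NMO CD11c- (SE 0.239, adjusted p = 0.00927; 2.76-fold) and 2.86 in CD11c+ (SE 0.249, adjusted p = 0.000153; 7.25-fold). Leaving out control replicate 1 ended the call for NMO CD11c- (adjusted p = 0.0556), and no library left out ended that for CD11c+ cells.

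The region just before the start of Cst7, the gene with the largest change, is printed with those of the 3 genes most abundant per kb in CD11c+ cells, Cst3, Ctsd and Ctss, so that they can be compared. Each is the 250 bases before the RefSeq start (GRCm38.p6), 5′ to 3′ on the gene's strand, for chr2:150570165-150570414 (plus), chr2:148875513-148875762 (minus), chr7:142387828-142388077 (minus) and chr3:95526536-95526785 (plus). Capitals mark matches, on either strand, to 4 short motifs: CACGTG (an E-box that TFEB-family lysosomal regulators can bind), GGGCGG (a GC box), GAGGAAG (a PU.1-like ETS motif) and GAAA followed by any 2 bases and GAAA (a pair of sites for interferon regulatory factors).
Cst7: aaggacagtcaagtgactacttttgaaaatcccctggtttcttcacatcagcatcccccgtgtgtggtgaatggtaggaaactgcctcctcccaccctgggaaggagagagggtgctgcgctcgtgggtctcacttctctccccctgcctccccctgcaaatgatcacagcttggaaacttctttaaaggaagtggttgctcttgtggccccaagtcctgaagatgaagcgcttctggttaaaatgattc
Cst3: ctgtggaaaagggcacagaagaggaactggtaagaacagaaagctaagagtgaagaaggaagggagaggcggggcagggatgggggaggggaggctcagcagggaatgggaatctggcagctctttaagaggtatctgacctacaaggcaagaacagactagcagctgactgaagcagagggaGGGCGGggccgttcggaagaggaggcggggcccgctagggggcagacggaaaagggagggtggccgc
Ctsd: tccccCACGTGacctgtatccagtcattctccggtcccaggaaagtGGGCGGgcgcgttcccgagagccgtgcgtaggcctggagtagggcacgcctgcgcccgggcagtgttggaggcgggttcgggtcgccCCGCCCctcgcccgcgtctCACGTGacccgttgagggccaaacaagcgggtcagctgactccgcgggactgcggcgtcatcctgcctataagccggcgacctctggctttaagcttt
Ctss: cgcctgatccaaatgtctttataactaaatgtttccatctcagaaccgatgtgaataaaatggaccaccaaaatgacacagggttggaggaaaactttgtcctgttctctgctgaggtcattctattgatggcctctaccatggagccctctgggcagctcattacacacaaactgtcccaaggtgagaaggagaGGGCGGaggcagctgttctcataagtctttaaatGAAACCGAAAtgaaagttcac
The Cst7 window held none of the 4 motifs. That of Ctsd held CACGTG at 245 and 98 bases before the start and a GC box at 204 and 117, that of Ctss held a GC box at 55 and the interferon regulatory factor pair at 21, and that of Cst3 held a GC box at 67. RefSeq promoters were matched for 8 of the 10 genes, leaving Ctsb and Ctsh. They have 9 windows, since Lgmn has 2 starts. Of those 9, CACGTG was found in 3 (Ctsd, Ctsl and the second of Lgmn), against 6.02% of all 32851 windows of this length, the GC box in 6 against 32.7%, GAGGAAG in Ctsc alone against 10.6%, and the GAAA pair in Ctss alone against 2.98%. A match is a description of letters in this window and not a bound site.

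Cathepsins B, S and H were each higher in CD11c+ than in control libraries, and the NMO CD11c- libraries lay between those groups without a call against either. Ctsb (ENSMUSG00000021939, chromosome 14, 63122462 to 63145923, plus strand) encodes a cysteine protease with both endo- and exopeptidase activity. It stood at 5718 and 4807 CPM in CD11c+, 4078, 3504 and 4040 in NMO CD11c- and 2882, 2874 and 2509 in control, with no overlap between any groups. CD11c+ cells exceeded control by 0.93 (log2, SE 0.136, adjusted p = 0.00252; 1.91-fold), and this call held without each library. NMO CD11c- cells were above control by 0.49 (SE 0.123, adjusted p = 0.0584), which was called without CD11c+ replicate 1 (0.0135) or 2 (0.0111), and also by DESeq2, with only these groups, with library size only, with either other filter and with the GC and length offset. An exon of Ctsb overlaps Fdft1 on the opposite strand, and whether counting used strand is not given in the sources used here.

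Ctss (ENSMUSG00000038642, chromosome 3, 95526786 to 95556403, plus strand) encodes cathepsin S, which removes the invariant chain from MHC class II in antigen-presenting cells and stays active at neutral pH. Its level was 9314 and 7247 CPM in CD11c+, 6382.5, 5793 and 6106 in NMO CD11c- and 5189.5, 5366 and 4609 in control, again without overlap. The CD11c+ mean exceeded control by 0.71 (log2, SE 0.14, adjusted p = 0.0123; 1.64-fold), a call lost without control replicate 3 (0.0573). Ctsh (ENSMUSG00000032359, chromosome 9, 90054152 to 90076089, plus strand) encodes an aminopeptidase. It stood at 1132 and 861 CPM in CD11c+, 715, 704 and 716 in NMO CD11c- and 530, 589.5 and 499.7 in control, and the groups did not overlap. The difference of CD11c+ from control was 0.88 (log2, SE 0.14, adjusted p = 0.00398; 1.85-fold) and was called without each library in turn. For NMO CD11c- against control the difference was 0.40 (adjusted p = 0.12), called by DESeq2, with only these groups, and without CD11c+ replicate 1 (0.0205) or 2 (0.019).

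Ctsl followed another order, with both NMO groups above control and overlapping each other. Ctsl (ENSMUSG00000021477, chromosome 13, 64359337 to 64370890, minus strand) encodes cathepsin L, an endopeptidase of the lysosome. It was 1118 and 1146 CPM in CD11c+, 1153, 953.8 and 1133 in NMO CD11c- and 798.3, 747.6 and 631.0 in control. Every NMO library was above every control library, and the NMO subsets overlapped. Its excess over control was 0.57 in NMO CD11c- (log2, SE 0.128, adjusted p = 0.0373; 1.49-fold) and 0.64 in CD11c+ (SE 0.141, adjusted p = 0.0201; 1.56-fold), and between the subsets it was 0.07 (95% interval -0.248 to 0.384, adjusted p = 0.829). The NMO CD11c- call did not survive the removal of any 1 of its own libraries (0.124, 0.0522 and 0.119 for replicates 1 to 3) or of any control library (0.0895, 0.128 and 0.141). For CD11c+ cells the removal of control replicate 2 (0.0669) or 3 (0.0796) ended it.

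Ctsz and Ctsc were the genes on which the CD11c+ libraries differed most from each other. Ctsz (ENSMUSG00000016256, chromosome 2, 174427493 to 174439039, minus strand) encodes cathepsin Z, a carboxypeptidase also called cathepsin X. It stood at 2109 and 1336 CPM in CD11c+, 1108, 1140 and 1090 in NMO CD11c- and 1038, 1040 and 864 in control, so both CD11c+ libraries were above all others. Against control the difference of CD11c+ was 0.81 (log2, SE 0.181, adjusted p = 0.0211; 1.76-fold), lost without CD11c+ replicate 1 (0.0729) or control replicate 1 (0.0622), 2 (0.0634) or 3 (0.0896). Against NMO CD11c- it was 0.63 (adjusted p = 0.178), which became 0.92 (0.00182) without CD11c+ replicate 2 and 0.26 (0.475) without replicate 1. Ctsz overlaps Nelfcd on the opposite strand. Ctsc (ENSMUSG00000030560, chromosome 7, 88278085 to 88310888, plus strand) encodes cathepsin C (dipeptidyl peptidase 1), which removes dipeptides from the N-terminus of proteins and so activates granule serine proteases. Its level was 374 and 722 CPM in CD11c+, the lowest and the highest of all 8 libraries, 610, 521.5 and 571 in NMO CD11c- and 485, 597.5 and 550 in control. The CD11c+ mean differed from control by 0.01 (95% interval -0.501 to 0.523, adjusted p = 0.98), and this value was -0.54 (0.0176) without CD11c+ replicate 2 and 0.41 (0.114) without replicate 1, so no direction can be given.

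Cathepsin D and legumain belong to other catalytic classes. Ctsd (ENSMUSG00000007891, chromosome 7, 142375911 to 142388038, minus strand) encodes the aspartic protease of the lysosome. It stood at 15073 and 14197 CPM in CD11c+, 11893, 10601 and 12390 in NMO CD11c- and 10485, 10246 and 8701 in control, with no overlap between groups. The rise over control was 0.58 in CD11c+ (log2, SE 0.13, adjusted p = 0.0226; 1.49-fold), and 0.25 in NMO CD11c- (0.297), not called. The CD11c+ call ended when NMO CD11c- replicate 1 (0.0523) or 3 (0.0595) or any control library (0.0547, 0.0669 and 0.0809 for replicates 1 to 3) was removed. Lgmn (ENSMUSG00000021190, chromosome 12, 102394084 to 102439813, minus strand) was 5371 and 4385 CPM in CD11c+, 4774, 4188 and 4570 in NMO CD11c- and 4400, 4486 and 3853 in control, and all groups overlapped. Its difference from control was 0.20 in CD11c+ (95% interval -0.106 to 0.506, adjusted p = 0.361) and 0.09 in NMO CD11c- (-0.188 to 0.362, 0.761). The upper end of the CD11c+ interval lies below the fitted differences of Cst7, Ctsb, Ctsd, Ctsh, Ctsl, Ctss and Ctsz from control in CD11c+ cells. Those fitted differences have intervals of their own, which this comparison leaves out, so it does not show that Lgmn differs from them. A test of one gene's change against another's was not run.

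Cst3 (ENSMUSG00000027447, chromosome 2, 148871722 to 148875692, minus strand) did not rise in either NMO group. Its level was 11638 and 9218 CPM in CD11c+, 9545, 9789 and 9616 in NMO CD11c- and 12496, 11554 and 9819 in control. All 3 NMO CD11c- libraries lay below all 3 control libraries, if only just (9789 against 9819 CPM for the closest pair), and CD11c+ overlapped both groups. The differences from control were -0.23 in NMO CD11c- (log2, SE 0.13, 95% interval -0.516 to 0.0635, adjusted p = 0.39) and -0.11 in CD11c+ (SE 0.146, -0.439 to 0.21, adjusted p = 0.636), and neither was called. With a correction for GC content and transcript length they were -0.37 (0.0313) and -0.47 (0.0132) and both were called.

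Because the 8 proteases and Cst3 are counted in the same library, their ratio does not depend on the scaling between libraries. There were 3.44 and 3.75 protease counts for each cystatin count in CD11c+, 3.21, 2.79 and 3.18 in NMO CD11c- and 2.06, 2.24 and 2.26 in control. The 3 groups did not overlap in this ratio, and Cst3 supplied nearly all cystatin counts. The 8 proteases include Ctsd, an aspartic protease, whereas cystatins inhibit cysteine proteases. The ratio therefore describes counts and not a balance of enzyme and inhibitor. The share of Cst7 in the cystatin counts was 0.35% and 0.388% in CD11c+, 0.135%, 0.192% and 0.125% in NMO CD11c- and 0.0411%, 0.0584% and 0.0386% in control, also without overlap. For each Cst7 count there were 285 and 256.5 of Cst3 in CD11c+, 520 to 798 in NMO CD11c- and 1712 to 2589 in control. For Ctsc, which encodes a target of cystatin F, the numbers per Cst7 count were 9.16 and 20.1 in CD11c+, 27.7 to 47.4 in NMO CD11c- and 88.5 to 145 in control. Neither ratio overlapped between groups, with control highest and CD11c+ lowest, the reverse of the order of protease per cystatin counts in the plot of ratios within a library. Both divide by Cst7, whose level alone separated the 3 groups, so this order is not a separate result for Cst3 or Ctsc. Ctsl per Ctss count, by contrast, was lower in CD11c+ (0.12 and 0.158) than in NMO CD11c- (0.165 to 0.186), and control (0.137 to 0.154) overlapped the CD11c+ range. These ratios have no test here, since the genes were chosen with results known.

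**Figure D2:**
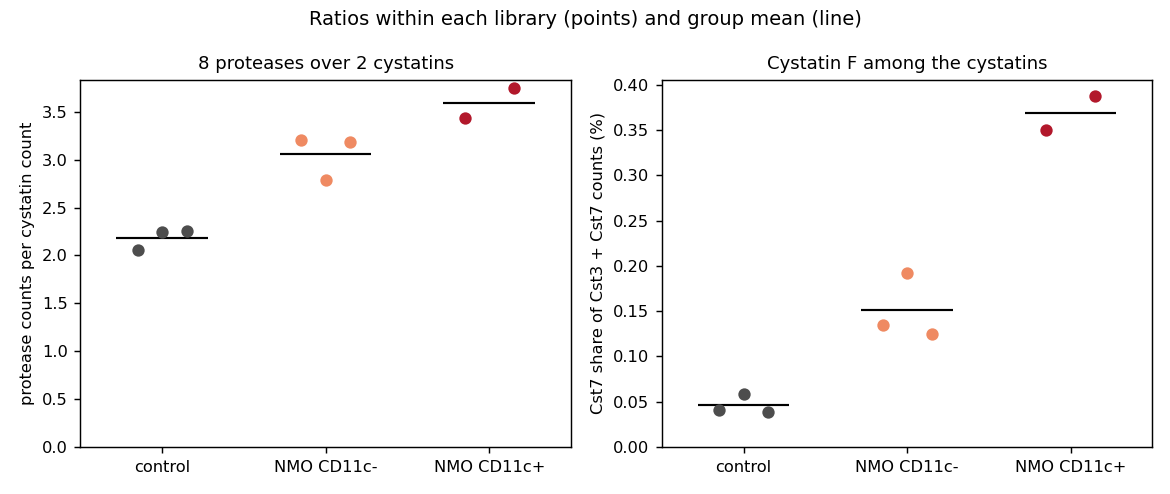
Protease counts per cystatin count (left) and the share of Cst7 in the cystatin counts in percent (right) within each library, by group; points are libraries and lines are group means. Protease counts per cystatin count run from 2.06 to 2.26 in control, 2.79 to 3.21 in NMO CD11c- and 3.44 to 3.75 in CD11c+.

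Between the NMO subsets, 1 of the 10 genes (Cst7) was called higher and 0 lower (0.100% and 0.183% of all genes). At an unadjusted p under 0.05 the number was 6 (Cst7, Ctsb, Ctsd, Ctsh, Ctss and Ctsz), all higher, where 7.90% of all genes were higher and 7.54% lower at that level. The same 6 genes did not overlap between the groups in that direction, against 13.8% of all genes, and 0 did so in the other direction, against 14.2%. DESeq2 called 5 (Cst7, Ctsb, Ctsh, Ctss and Ctsz), and 2.23% of all genes. The median log2 fold change of the 10 genes was 0.387, against 0.00968 for all genes. The 4 calls that DESeq2 adds had values of 0.44 for Ctsb (adjusted p = 0.201 in edgeR), 0.49 for Ctsh (0.18), 0.44 for Ctss (0.207) and 0.63 for Ctsz (0.178). Ctsd stood 0.33 higher (0.278), and Lgmn (0.11, 0.692), Cst3 (0.11, 0.712) and Ctsc (-0.05, 0.927) were closest to 0 with Ctsl.

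For NMO CD11c- against control, 2 of the 10 (Cst7 and Ctsl) were called higher and 0 lower (3.0% and 0.717% of all genes). At an unadjusted p under 0.05 it was 4 higher (Cst7, Ctsb, Ctsh and Ctsl) and 0 lower, against 11.7% and 7.02%. In all, 7 (Cst7, Ctsb, Ctsd, Ctsh, Ctsl, Ctss and Ctsz) lay above control without overlap and 1 (Cst3) below, against 17.6% and 16.1% of all genes. The median difference was 0.257, against -0.00397 for all genes. For CD11c+ against control, 7 were called higher and 0 lower (6.85% and 3.36% of all genes). These were also the 7 at an unadjusted p under 0.05, against 15.6% of all genes higher and 13.2% lower, and the 7 without overlap, against 22.2% higher and 21.5% lower, and the median was 0.677, against 0.00607. The 3 comparisons share libraries, and 2 of them share the controls, so their counts are not independent. In control, replicate 3 was the lowest of the 3 libraries for 9 of the 10 genes (all but Ctsc), where it was the lowest for 36.2% of all tested genes, and in NMO CD11c- replicate 2 was the lowest for 7, against 35.5%. Without control replicate 3 the number called in CD11c+ fell to 3 (Cst7, Ctsb and Ctsh), without replicate 2 to 4, and without replicate 1 to 5. The share of all genes called in either direction, 10.2% as reported, fell as well, to 4.09%, 4.39% and 4.32%. A fit of only these groups also called 3, and 5.29% of all genes. In CD11c+ against control those 3 genes were called under every alternative tried. The plot of fold changes gives every difference with its interval, and the plot of calls by setting shows which genes were called where.

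**Figure D3:**
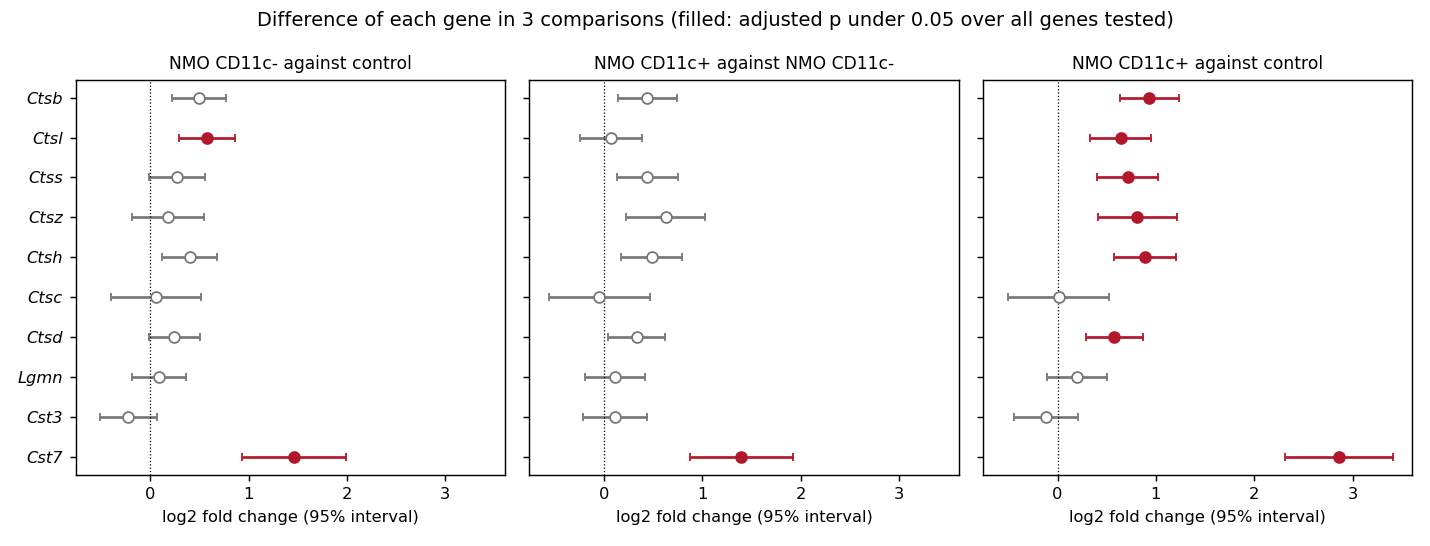
Fitted log2 fold change of each gene in the 3 comparisons, with its 95% interval from the edgeR fit; filled points are called at an adjusted p under 0.05. Cst7 stands furthest from 0 in each comparison (1.40, 1.46 and 2.86), and the intervals of Ctsc, Cst3 and Lgmn include 0 in all 3.

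**Figure D4:**
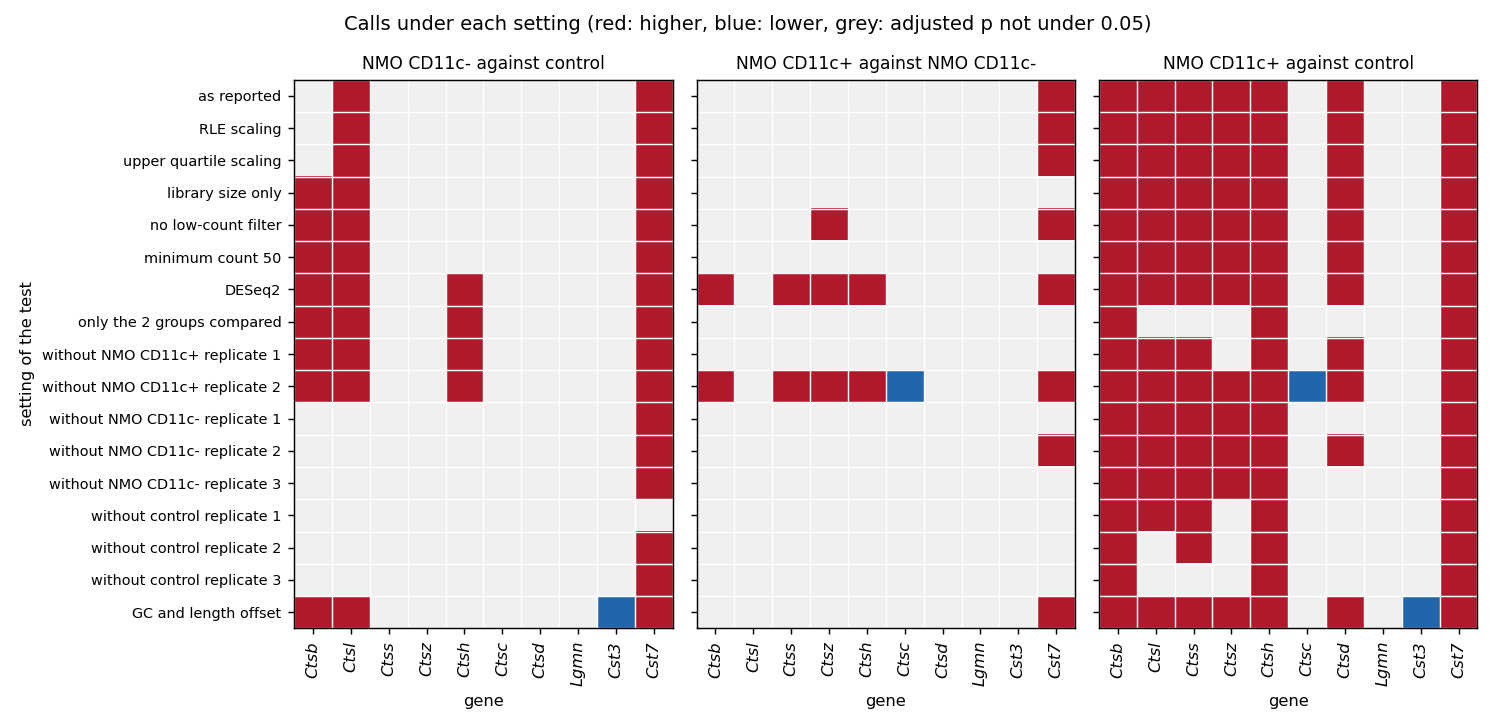
Calls of the 10 genes (columns) in each comparison (panels) under the test as reported, each alternative and each left-out library (rows); red is called higher, blue called lower and grey not called. The numbers called take both directions together. For CD11c+ against control the number called runs from 3 to 8, for NMO CD11c- against control from 0 to 4, and between the NMO subsets from 0 to 6.

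The difference between the 2 CD11c+ libraries varied from gene to gene, although by CPM only Ctsh and Ctsl changed places in the order. The log2 CPM of replicate 1 exceeded that of replicate 2 by 0.66 for Ctsz (57.32% GC in its transcript), 0.40 for Ctsh (51.21%), 0.36 for Ctss (45.98%), 0.34 for Cst3 (57.21%), 0.29 for Lgmn (51.76%) and 0.25 for Ctsb (49.23%). It was 0.18 for Cst7 (50.1%), 0.09 for Ctsd (55.95%), -0.04 for Ctsl (44.7%) and -0.95 for Ctsc (41.12%), the transcript lowest in GC. Over the 10 genes Pearson's r between GC content and this difference was 0.71, a description over genes that share both libraries and not a test. Without replicate 2, 5 genes were called higher between the NMO subsets (Cst7, Ctsz, Ctsh at 0.67, Ctss at 0.61 and Ctsb at 0.56) and Ctsc was called lower (-0.60, adjusted p = 0.0164), but 24.2% of all genes were then called. Without replicate 1, 0 of the 10 and 0.0322% of all genes were called, and Ctsh (0.27), Ctss (0.25) and Ctsb (0.31) kept a positive difference. The part of GC content in the result was not tested beyond the correction given above. The plot of the 2 CD11c+ libraries against GC content shows Ctsc and Ctsz at its ends.

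**Figure D5:**
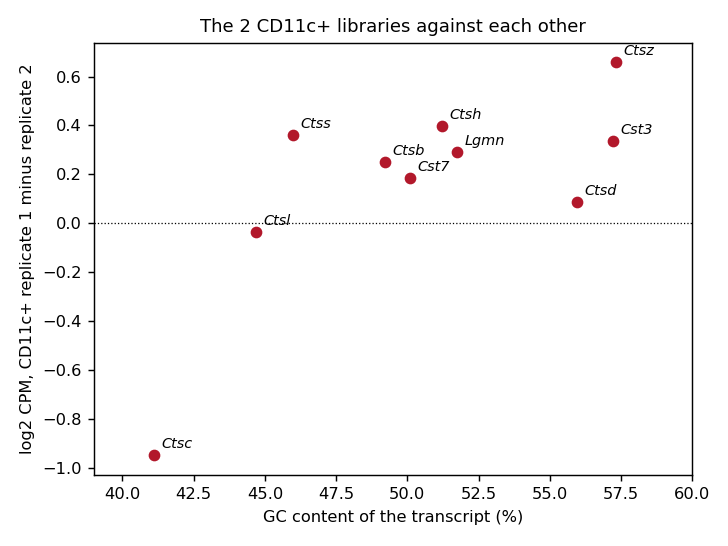
Log2 CPM of CD11c+ replicate 1 minus replicate 2 (vertical axis) against the GC content of the transcript in percent (horizontal axis), 1 point per gene. Ctsc, at 41.12% GC, is at -0.95 and Ctsz, at 57.32%, at 0.66.

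Across the 8 libraries, the levels of the 7 genes called higher in CD11c+ than in control varied together. They were picked for that difference in these same libraries, so positive correlations among them follow in part from the choice. Pearson's r of log2 CPM over their 21 pairs ran from 0.622 to 0.986, with a median of 0.919. It was highest for Ctsh with Ctss (0.986), followed by Ctsb with Ctsh (0.974), Ctsd (0.973) and Ctss (0.971). Over all 45 pairs of the 10 genes the median was 0.791. Lgmn, which was not called, had r of 0.612 (with Cst7) to 0.841 (with Ctss) with the same 7 genes. Ctsc had r between -0.64 (with Cst3) and 0.0504 with the other 9. These are descriptions over n = 8 libraries that share their scaling and fall into the 3 groups, so no p is given. For each of the 7 genes, the 3 tested genes with the highest r were taken. Glb1, a lysosomal beta-galactosidase, was among those of Ctsb (0.9936), Ctsh (0.9872) and Ctss (0.9894). Ctsb also had Itm2b (0.9976) and Eif4b (0.9975), Ctsh had Eif3k (0.9940) and Pnpla7 (0.9882), and Ctss had Psap (0.9888). Ctsd had Lamp1 (0.9801), a lysosomal membrane protein, Ctsb (0.9730) and Npc2 (0.9708), a lysosomal cholesterol carrier. Cst7 had Ly9 (0.9862), H2-T22 (0.9859) and Use1 (0.9856), Ctsz had Uap1l1 (0.9960), Tap2 (0.9924) and Os9 (0.9912), and Ctsl had Adam9 (0.9739), Sh2d5 (0.9677) and Pip4p1 (0.9668).

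Other genes of the pathway were taken from lists. Of 7 further cathepsins, 4 had enough counts to be tested. In CD11c+ against control 3 of them were called higher and 1 lower, against 6.85% and 3.36% of all genes. Ctsa, a lysosomal carboxypeptidase that protects beta-galactosidase, was 2151 and 1492 CPM in CD11c+ and 1008 to 1159 in control (log2 0.72, SE 0.158, adjusted p = 0.0201), and it overlaps other genes. Ctse, an endosomal aspartic protease, was 9.60 and 6.17 CPM in CD11c+ against 2.08 to 3.14 (1.51, adjusted p = 0.0122). Ctsf was 478 and 350 CPM against 257 to 283 (0.60, 0.0249), and Ctso was 73.9 and 110 against 139 to 152 (-0.65, 0.0302). In CD11c+ all 4 lay outside the control range, and without CD11c+ replicate 1 each call was lost (0.0621, 0.0729, 0.0754 and 0.0709 in the order given). Those of Ctsa, Ctsf and Ctso were also lost without any 1 of the control libraries (0.0609 to 0.0979), and that of Ctso without NMO CD11c- replicate 3 (0.0588).

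Of 12 further protease inhibitors 4 were tested and 2 were called higher in CD11c+ than in control, against 6.85% of all genes. Cstb, the cytosolic inhibitor stefin B, was 23.3 and 29.8 CPM against 14.2 to 16.8 (0.81, SE 0.17, adjusted p = 0.0165), lost without control replicate 2 (0.0701) or 3 (0.0716). Ctla2b, related to cathepsin propeptides, was 27.2 and 30.3 CPM against 11.0 to 13.3 (1.24, SE 0.16, adjusted p = 0.00132), uncertain because its close copy Ctla2a could share reads. In the other comparisons edgeR called 0 genes of either list. Between the NMO subsets 2 of the cathepsins (Ctsa and Ctse) and 2 of the inhibitors (Cstb and Ctla2b) were higher at an unadjusted p under 0.05 (7.90% of all genes) and 1 inhibitor (Serpinb1a) lower (7.54%), and DESeq2 called 0 and 2 (Ctla2b higher and Serpinb1a lower), with 2.23% of all genes. For NMO CD11c- against control 2 cathepsins (Ctse and Ctsf) and all 4 tested inhibitors were higher at that level (11.7% of all genes) and Ctso lower (7.02%), and DESeq2 called 1 (Ctsf) and 0, with 5.8% of all genes.

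Of 17 genes that carry enzymes to the lysosome or support them there, 3 were called higher in CD11c+ than in control, against 6.85% of all genes. None was called lower, against 3.36%. The median difference was 0.249 over the list, against 0.00607 for all genes. At an unadjusted p under 0.05, 7 of the 17 were higher and 1 (Vps35) lower, against 15.6% and 13.2% of all genes. Gnptab, a subunit of the enzyme that makes the mannose 6-phosphate tag, was 81.7 and 82.6 CPM against 50.3 to 53.2 in control (log2 0.67, SE 0.0913, adjusted p = 0.00173). Grn, the gene for progranulin, was 4051 and 2877 CPM in CD11c+, 2580 to 2876 in NMO CD11c- and 1559 to 1830 in control. It was also the 1 gene of this list called for NMO CD11c- against control (0.66, adjusted p = 0.034), where 3.0% of all genes were called higher. That call was lost without any 1 NMO CD11c- or control library (0.0798 to 0.137). Psap, which yields the saposins, was 8295 and 5872 CPM against 4038 to 4691 (0.67, adjusted p = 0.0261), a call that ended when CD11c+ replicate 1 (0.0881), NMO CD11c- replicate 1 (0.0509) or 3 (0.0584), or any control library (0.072 to 0.0987) was removed. In a list of 12 transcription factors, acidification and ion transport genes that includes Tfeb, Tfe3, Mitf, Irf8 and Spi1, 11 were tested and 0 were called in any comparison by edgeR. At an unadjusted p under 0.05, 4 of these 11 were higher in CD11c+ than in control (Tfeb, Irf8, Cebpb and Clcn7), where 15.6% of all genes were. Likewise 3 were higher in CD11c+ than in NMO CD11c- (Tfeb, Irf8 and Cebpb; 7.90% of all genes), and 0 were higher or lower in NMO CD11c- than in control (11.7% and 7.02%). DESeq2 called 3 (Clcn7, Irf8 and Cebpb), 0 and 0, where it called 13.9%, 2.23% and 5.8% of all genes. Tfeb, a regulator of lysosomal genes, stood at 121 and 78.9 CPM in CD11c+, 62.4 to 69.4 in NMO CD11c- and 67.2 to 75.5 in control.

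Of 7 genes that process or load MHC class II chains, 3 were called higher in CD11c+ than in control, against 6.85% of all genes. In NMO CD11c- against control that share of all genes was 3.0%. Cd74, the invariant chain on which cathepsin S acts, was 226 and 219 CPM in CD11c+, 93.5, 141 and 103 in NMO CD11c- and 51.6, 84.7 and 70.6 in control (1.69 against control, SE 0.209, adjusted p = 0.00108). Ifi30, a lysosomal thiol reductase, was at 217 CPM in both CD11c+ libraries, 218 to 244 in NMO CD11c- and 130 to 172 in control, called in both (0.58, 0.0266, and 0.64, 0.0193). The CD11c+ call of Ifi30 was lost without CD11c+ replicate 1 (0.0557) or control replicate 1 (0.101) or 3 (0.105), and that for NMO CD11c- when any of its own libraries (0.0542, 0.0547 and 0.0634) or control replicate 1 (0.116) or 3 (0.102) was removed. The third, H2-Oa, part of a regulator of class II loading, was 40.2 and 35.8 CPM in CD11c+ and 18.8 to 27.9 in control (0.66, 0.0312). That call ended when CD11c+ replicate 1 (0.103), NMO CD11c- replicate 1 (0.0542) or 3 (0.0552), or 1 of the controls, replicate 2 (0.083) or 3 (0.0796), was removed. Between the NMO subsets edgeR called 0 genes of the sorting and class II lists, where 5 of 17 and 2 of 7 were higher at an unadjusted p under 0.05, against 7.90% of all genes. DESeq2 called 0 and 1 (Cd74, 0.99 higher, edgeR adjusted p = 0.0798), against 2.23%.

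Markers of some other cell types also differed between the groups. All 10 neutrophil markers were called lower in CD11c+ than in NMO CD11c- (0.183% of all genes) and than in control (3.36%). In NMO CD11c- 2 of them (S100a8 and Cxcr2) were called higher than in control (3.0% of all genes). NMO CD11c- replicate 2, the lowest of its group for 7 of the 10 genes (against 35.5% of all genes), had the highest neutrophil sum (10682 CPM). In CD11c+ libraries that sum was at most 19.7 CPM and Ly6g was at 0. There 6 of the 10 genes lay above NMO CD11c- without overlap, against 13.8% of all genes. The sum was higher in NMO CD11c- (2067 to 10682 CPM) than in control (864 to 1774). In that comparison 7 of the 10 genes lay above control without overlap and 1 below, against 17.6% and 16.1% of all genes. Monocyte markers summed to 49.0 and 51.8 CPM in CD11c+, 196 to 991 in NMO CD11c- and 79.1 to 152 in control. Of the 8 tested, 2 (Fn1 and Ms4a4c) were called higher and 1 (Chil3) lower in CD11c+ than in control (6.85% and 3.36% of all genes). Chil3 alone stood at 0.613 and 0.705 CPM in CD11c+, 114 to 866 in NMO CD11c- and 57.2 to 121 in control. Dendritic cell markers summed to 56.2 and 74.6, 53.3 to 71.8 and 40.0 to 49.4 CPM in the same order, and border-associated macrophage markers to 1275 and 2018, 1504 to 1636 and 1561 to 1599. NK cell markers reached at most 6.78 CPM and T cell markers 2.35 in any library, with the defining Ncr1 and Cd3e at 0 in all 8. Astrocyte markers ranged from 122 to 155 CPM, oligodendrocyte markers from 88.4 to 114, neuronal markers from 0.75 to 2.54, endothelial markers from 38.5 to 72.5 and B cell markers from 385 to 488. The 14 immediate-early genes, which respond to cell handling, summed to 9748 and 39367 CPM in CD11c+, 7844 to 20198 in NMO CD11c- and 23574 to 48374 in control. The part of these cells and genes in the differences of the cathepsins and cystatins was not tested.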

How the data were processed

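Gene counts were used as deposited by the authors, as whole numbers for 41388 gene identifiers in each of 8 libraries. Per the submitters' processing notes, STAR 2.3.11, GRCm38, HTSeq 0.5.4 and edgeR 3.12.0 were used; strand setting and annotation release: not given in the sources used here. Of the identifiers, 40340 matched a symbol in GENCODE M21 and 1048 did not (0.093% of counts).

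Counts were tested with edgeR 4.0.16 (R 4.3.3, limma 3.58.1; filterByExpr with a minimum count of 10, TMM scaling, glmQLFit and glmQLFTest on all 8 libraries, residual degrees of freedom 5), with Benjamini-Hochberg adjustment over the 12002 genes tested, and a gene was called under 0.05. "Adjusted p" means this. CPM divide by the TMM-scaled size of the library over tested genes. SE and 95% intervals belong to the fitted log2 fold change. A count of 0 allows up to 3 counts; such floors cover counting error only. No 2 libraries held identical counts.

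The 10 genes, the lists and the rule for named genes (all 10, called genes of the lists, Tfeb and other list genes needed to describe a list, the 3 best-correlated genes of each called member, and Itgax) were chosen with earlier results of these data known. Tfeb, Serpinb1a and the genes named at an unadjusted p under 0.05 were named after their values were seen. A result for 1 best-correlated gene is not reported here. Alternatives were RLE, upper-quartile or library-size scaling, no or a stricter filter (50), DESeq2 1.42.0, only the groups compared, a GC and length offset, and each library left out. The pipeline was tested on simulated data. Replicates are numbered in accession order.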

Additional observations from a re-analysis of the deposited data

How the results depend on the processing

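No paired analysis was possible because nothing in the labels links libraries of different groups, and replicates are numbered in accession order. Between the NMO subsets the number of the 10 genes called, 1 as reported, was 0 with library size only, with a minimum count of 50 and with only the 2 groups compared, 2 with no low-count filter and 5 with DESeq2, and leaving out each library gave 0 to 6. The share of all genes called, 0.283% as reported, was 0.267%, 0.379%, 0.0426%, 3.34% and 2.23% under those alternatives in that order, and 0.0322% to 24.2% with a library left out, the latter without CD11c+ replicate 2, where 6 of the 10 were called. For NMO CD11c- against control, 2 as reported, it was 4 with DESeq2, with only the 2 groups compared and with the GC and length offset, and leaving out each library gave 0 to 4. The share of all genes, 3.72% as reported, was 5.8%, 10.5% and 7.82%, and 1.18% to 9.59% with a library left out. For CD11c+ against control, 7 as reported, it was 3 with only the 2 groups compared and 8 with the offset, and leaving out each library gave 3 to 8. The share of all genes, 10.2% as reported, was 5.29% and 12.3%, and 4.09% to 32.7% with a library left out. The RLE and upper-quartile scalings changed none of the 3 counts. All these counts take higher and lower calls together. With the GC and length offset they include Cst3, called lower in both NMO groups than in control. The sign of Ctsc in CD11c+ against control turned without CD11c+ replicate 2 (-0.54, adjusted p = 0.0176) and was 0.41 (0.114) without replicate 1. Where leaving out a library or using fewer groups reduced a count, fewer libraries entered the fit; for the other alternatives the cause was not tested. With 2 CD11c+ libraries the spread of that group rests on 1 difference, and leaving out 1 of them assumes that the other varies like the other groups. Cst7, at 29 to 204 counts a library, is the gene of the 10 with the fewest counts.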

Other observations

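Genes of neutrophil granules and their inhibitors, which cathepsin C and cystatins act beside in that cell type, were read in the same libraries. Elane, neutrophil elastase, which cathepsin C activates, was at 0 in both CD11c+ libraries, which over the group allows up to 0.284 CPM. It stood at 4.79, 35.7 and 2.5 CPM in NMO CD11c- and at 0.367, 1.61 and 2.22 in control. Prtn3, proteinase 3, was 0 and 0.176 CPM in CD11c+, 2.69, 25.9 and 1.47 in NMO CD11c- and 0.978, 1.18 and 2.88 in control. Ctsg, the granule serine protease cathepsin G, did not pass the filter, with 0 and 0 counts in CD11c+, 4, 33 and 1 in NMO CD11c- and 0, 2 and 2 in control. Serpinb1a, an inhibitor of these enzymes, was 0 and 0.176 CPM in CD11c+, 17.8, 81.9 and 11.9 in NMO CD11c- and 4.77, 6.32 and 9.55 in control. For all 4 genes NMO CD11c- replicate 2 was the highest library, and it also held the highest sum of neutrophil markers, 10682 CPM. By edgeR, 0 of the 2 tested granule protease genes were called in any comparison. At an unadjusted p under 0.05 both were lower in CD11c+ than in NMO CD11c- (7.54% of all genes) and higher in NMO CD11c- than in control (11.7%). DESeq2 called 2 between the NMO subsets, where it called 2.23% of all genes, and 0 in the other comparisons. Ctsk and Ctsw also stayed below the filter, at no more than 9 and 13 counts in any library.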
